A study of Rattus norvegicus with 12 samples.

Results

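Transcripts of 10 genes, 6 ligands of the EGF family (Hbegf, Areg, Ereg, Tgfa, Btc and Nrg1) and the 4 ErbB receptors (Egfr, Erbb2, Erbb3 and Erbb4), were followed in primary rat cortical neuroglial cultures. They were taken by gene symbol from the 28111 names of the expression tables, and each of the 10 has 1 row. The cultures were made from pups of postnatal day 0 according to the labels (slightly older newborns in the methods of the study) and kept for 10 days in vitro, and RNA was taken at 4 h. The intact control (IC) received no addition. The EV cultures received 10 µg/mL of extracellular vesicles (EV-GPCs) isolated from medium conditioned by glial progenitor cells (GPCs), which had been derived from human induced pluripotent stem cells. The other cultures received 15 µg/mL of the 3–100 kDa proteins of the same kind of medium or 45 µg/mL of its total secretome. Each of the 4 groups has 3 libraries, and the amounts added differed between the preparations, so a difference between 2 preparations is also a difference in amount. According to the methods of the study, the GPCs were grown with EGF and ciliary neurotrophic factor and then washed and kept in serum-free medium while it was conditioned, and the rat cultures were given cytosine arabinoside, which limits dividing cells.

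EGF-family ligands are made as membrane-bound precursors and are released by proteases of the ADAM family. HB-EGF, betacellulin and epiregulin bind both EGFR and ErbB4, amphiregulin and TGF-α bind EGFR, and neuregulins bind ErbB3 and ErbB4, while ErbB2 has no known ligand and serves as the partner of the other receptors. Bound receptors pair and signal through Ras and ERK, which switches on early response genes, and through PI3K and Akt. In cortex, ErbB4 is best known from interneurons, and neuregulin signalling from the development of interneurons and glia.

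The values are TPM, transcript abundances corrected for length and scaled to the library total. Each library sums to 1000000, so depth cannot be read from the values and no counting interval can be given. A listed 0 is not read as absence, because Rps6, a ribosomal gene of every cell, has the value 0 throughout. Differences are log2 fold changes on the log2(TPM + 1) scale, after rescaling within the pair of groups, with the SE and the Benjamini-Hochberg adjusted p of limma over all genes tested. This scale understates the change of low genes. The study describes its experiments in general as repeated on unrelated cultures, but the labels do not say it of the 3 libraries of a group, so the p-values measure the spread between these libraries.

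Hbegf, which encodes HB-EGF, had the largest log2 differences from the control among the 7 tested members. The IC libraries held 12.4, 11.1 and 11.2 TPM of Hbegf, and the EV libraries 18.1, 24.4 and 24.0 TPM. It reached 95, 116 and 185 TPM with the 3–100 kDa proteins and 23.2, 54.9 and 69.9 TPM with the total secretome. All 9 treated libraries lay above all 3 IC libraries, and the 3–100 kDa libraries lay above all the others. Mean levels were 11.6 ± 0.689 TPM in IC, 22.2 ± 3.53 TPM with EV, 132 ± 46.8 TPM with the 3–100 kDa proteins and 49.3 ± 23.9 TPM with the total secretome (SD, n = 3). The first library of the total secretome was the lowest of its group and lay just under the 2 higher EV libraries.

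**Figure D1:**
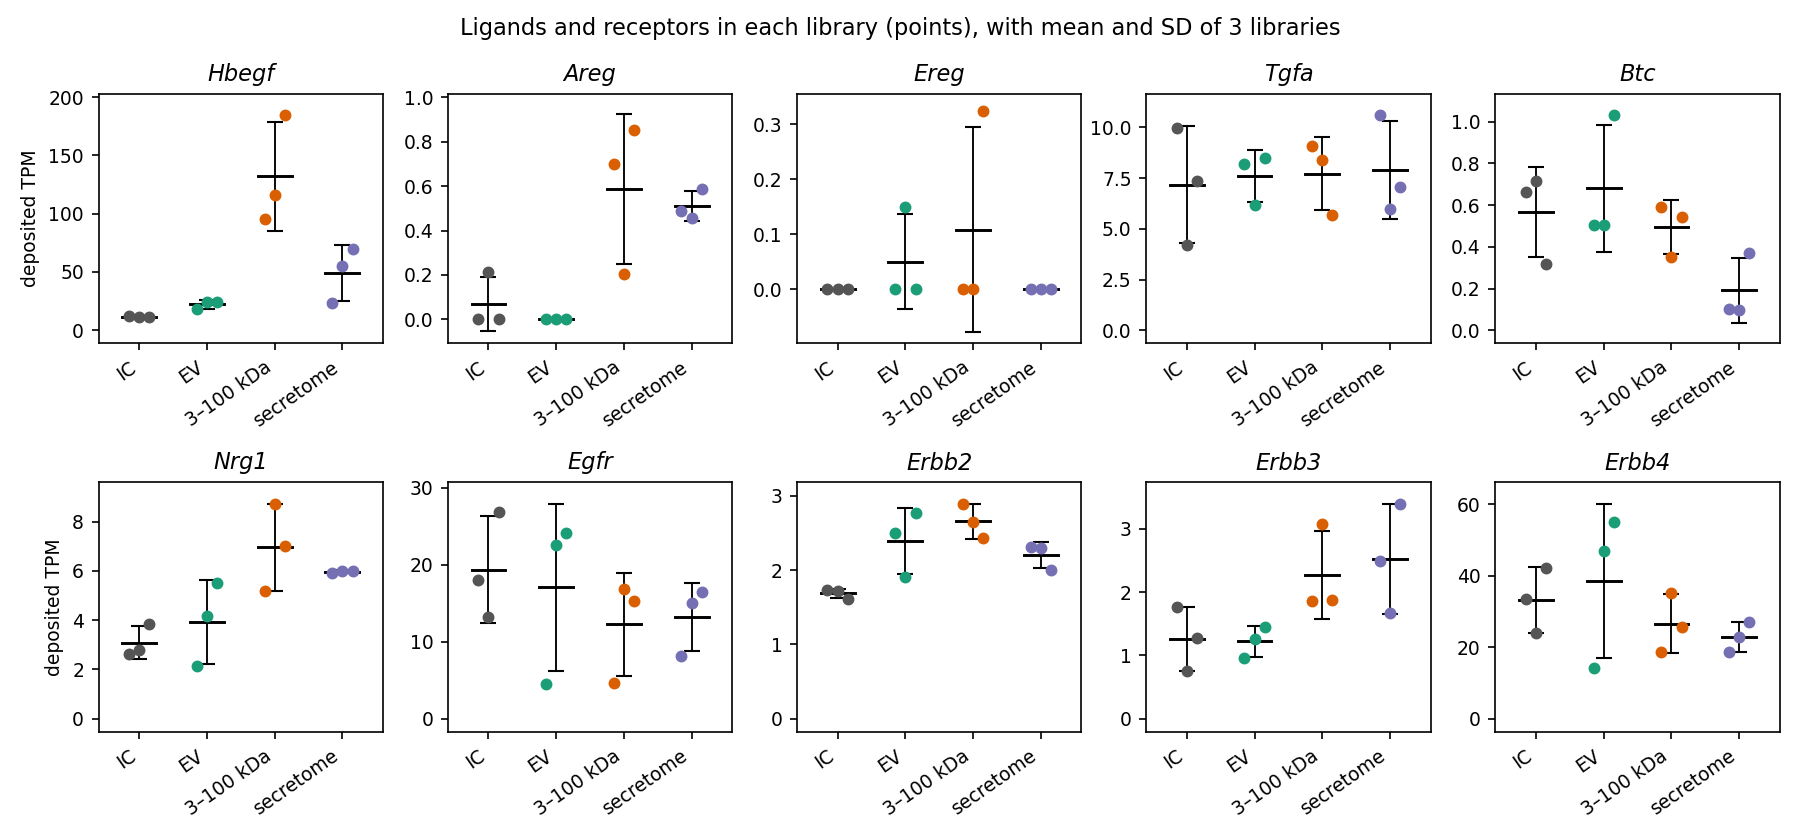
Level of each ligand and receptor (vertical axis, deposited TPM, a separate range for each gene) in the 3 libraries of each group (points), with the mean (horizontal bar) and SD (error bar). Hbegf lies between 95 and 185 TPM in the 3–100 kDa libraries and between 11.1 and 12.4 TPM in IC, while Tgfa overlaps in all 4 groups.

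Against IC, Hbegf rose with the 3–100 kDa proteins by 3.38 on the log2 scale (SE 0.28, 95% interval 2.73 to 4.02, adjusted p = 0.00143), an 11.4-fold ratio of mean TPM. With the total secretome the difference was 1.89 (SE 0.40), and its adjusted p of 0.0671 missed the threshold of 0.05. A fit with the replicate number as a block gave an adjusted p of 0.0461 for the same difference. The block rests on an inferred pairing, with correlations of only 0.245, 0.161 and 0.158 between libraries of one number. With 1 library left out the difference ranged from 1.52 to 2.40. Its adjusted p then ran from 0.0103 (without the first total secretome library) to 0.293 (without the second). With EV the difference was 0.86 (SE 0.17), a 1.92-fold ratio of mean TPM, with an adjusted p of 0.253 by limma. Over the 6 libraries left out in turn, the EV difference ranged from 0.79 to 0.98 and the 3–100 kDa difference from 3.05 to 3.61.

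The bases upstream of the start of Hbegf and of Areg, which encodes amphiregulin, are shown because these ligands had their highest levels with the protein preparations. Each run holds the 250 bases before the RefSeq transcript start in the rat build GRCr8, read on the minus strand from 5′ to 3′. The expression values were made with another build, and the sequence is given as reference only. Hbegf is taken from chr18:28390221-28390470 and Areg from chr14:17265642-17265891. Capitals mark matches to motifs that were chosen after the sequences had been seen.
Hbegf: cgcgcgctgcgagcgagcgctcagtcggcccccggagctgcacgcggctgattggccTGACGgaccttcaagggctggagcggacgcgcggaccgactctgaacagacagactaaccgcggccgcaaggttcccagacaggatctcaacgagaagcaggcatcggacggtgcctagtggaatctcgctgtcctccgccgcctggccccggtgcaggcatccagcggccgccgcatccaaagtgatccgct
Areg: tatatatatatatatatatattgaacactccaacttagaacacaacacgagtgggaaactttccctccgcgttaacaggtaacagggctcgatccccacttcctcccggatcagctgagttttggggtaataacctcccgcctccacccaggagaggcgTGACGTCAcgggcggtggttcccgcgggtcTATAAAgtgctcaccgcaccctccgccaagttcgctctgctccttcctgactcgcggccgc

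The capitals in Hbegf are the core letters of the cAMP response element (TGACG or CGTCA), at bases 193 to 189 before the start. These letters occurred in 18.2% of 33469 rat promoter windows of the same length. In Areg the full element TGACGTCA lies at bases 91 to 84 before the start and a TATAAA box at bases 61 to 56, found in 1.59% and 12.9% of windows (TATAAA or TTTATA). Neither window held the AP-1 letters TGAGTCA or TGACTCA (4.05% of windows) or the EGR letters GCGTGGGCG or CGCCCACGC (0.478%). The Hbegf window had 67.6% G and C and 30 CpG pairs, against medians of 51.2% and 5 over all windows. The other members with a matched window were above both medians too. They ran from 54.4% (Areg) to 74.4% (Tgfa) G and C and from 10 (Btc) to 31 (Erbb4) CpG pairs. These are letter matches and not measured binding.

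For Nrg1, which encodes neuregulin 1, IC held 2.63, 2.80 and 3.86 TPM and EV 2.13, 4.15 and 5.51 TPM. It was at 5.18, 8.71 and 7.02 TPM with the 3–100 kDa proteins and at 5.91, 6.01 and 6.0 TPM with the total secretome. Every library of both protein preparations lay above every IC library, whereas the EV libraries spread across the IC range. The difference from IC was 0.97 (SE 0.25, adjusted p = 0.101) with the 3–100 kDa proteins and 0.79 (SE 0.21, adjusted p = 0.124) with the total secretome. With EV it was 0.21, with a 95% interval from −0.55 to 0.96. None of the 3 passed the adjusted threshold.

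Tgfa, which encodes TGF-α, was at 9.97, 4.19 and 7.37 TPM in IC, and its group means lay between 7.18 and 7.89 TPM. The groups overlapped in every comparison. Its difference from IC was 0.16 with the 3–100 kDa proteins, where the 95% interval from −0.51 to 0.84 leaves room for a change in either direction.

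Areg, Btc and Ereg did not reach 1 TPM in 3 libraries of any comparison and were not part of the adjusted tests. For Areg, IC held 0, 0.211 and 0 TPM, and each EV library 0. It was at 0.698, 0.206 and 0.855 TPM with the 3–100 kDa proteins and at 0.490, 0.456 and 0.587 TPM with the total secretome. All 3 total secretome libraries lay above all IC libraries, at levels under 1 TPM. With no filter on low values, the total secretome minus IC difference of Areg was 0.51 (adjusted p = 0.137). Btc, which encodes betacellulin, averaged 0.566 ± 0.215 TPM in IC and 0.191 ± 0.156 TPM with the total secretome (adjusted p = 0.353 with no filter). Ereg, which encodes epiregulin, was listed above 0 in 1 EV library (0.150 TPM) and 1 library of the 3–100 kDa proteins (0.324 TPM).

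Hbegf made up 48.2%, 58.4% and 49.3% of the summed TPM of the 6 ligands in the IC libraries. Its share was 62.5%, 69.0% and 61.5% with EV, 85.9%, 86.8% and 92.8% with the 3–100 kDa proteins, and 57.5%, 81.4% and 83.3% with the total secretome. By mean TPM, Hbegf had rank 3 of the 10 members in IC, after Erbb4 and Egfr, rank 2 with EV and rank 1 with both protein preparations. In IC the order was Erbb4, Egfr, Hbegf, Tgfa, Nrg1, Erbb2, Erbb3, Btc, Areg and Ereg. Neighbours in that order whose IC libraries overlapped were Erbb4 and Egfr, Erbb2 and Erbb3, and Areg and Ereg.

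The 4 receptors had no member past the adjusted threshold in any of the 6 comparisons. Egfr, which encodes the EGF receptor, held 18.1, 13.2 and 26.9 TPM in IC against 4.55, 22.5 and 24.2 TPM with EV. It was at 4.62, 16.9 and 15.3 TPM with the 3–100 kDa proteins and at 8.16, 15.1 and 16.5 TPM with the total secretome. The first library of each treated group was its lowest, and the groups overlapped. The differences from IC were −0.41 with EV, −0.70 with the 3–100 kDa proteins and −0.50 with the total secretome, with SEs of 0.59, 0.49 and 0.37. Without the first EV library the EV difference was 0.28. With 1 library left out, the 3–100 kDa difference ranged from −0.996 to −0.14 and the total secretome difference from −0.74 to −0.16, both nearest 0 without the first treated library.

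Erbb4, the neuregulin receptor known from interneurons, held 33.6, 23.9 and 42.2 TPM in IC against 14.2, 46.8 and 54.9 TPM with EV. It was at 18.7, 35.3 and 25.7 TPM with the 3–100 kDa proteins and at 18.7, 22.7 and 27.0 TPM with the total secretome. The groups overlapped here too, and the differences from IC were 0.03, −0.29 and −0.48, with adjusted p of 1.0, 0.692 and 0.433. With 1 library left out, the Erbb4 difference changed sign with EV, from −0.34 to 0.60. It ranged from −0.51 to −0.04 with the 3–100 kDa proteins (nearest 0 without their first library). With the total secretome it ranged from −0.70 to −0.25 (nearest 0 without the third IC library). Levels of Egfr and Erbb4 moved together over the 12 libraries (Pearson r = 0.906, Spearman rho = 0.902), which share their groups and their replicate numbers.

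A shift of long genes moved with both receptors. For each library, the median log2 deviation of the 1115 shortest genes was subtracted from that of the 1114 longest genes (spans of at least 153 kb against at most 4.69 kb, for the 83.9% of genes with a span in GRCr8). This shift was −0.62 in both the second IC library and the first EV library and −0.35 in the first 3–100 kDa library, and 0.42 and 0.45 in the third EV library and the third IC library. Over 12 libraries its Pearson r was 0.808 with Egfr, 0.864 with Erbb4 and 0.096 with Hbegf, as a description. With Nrg1, Tgfa and Erbb2 the r was 0.448, 0.271 and −0.0913. The part of the shift in the receptor and ligand levels was not tested.

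**Figure D2:**
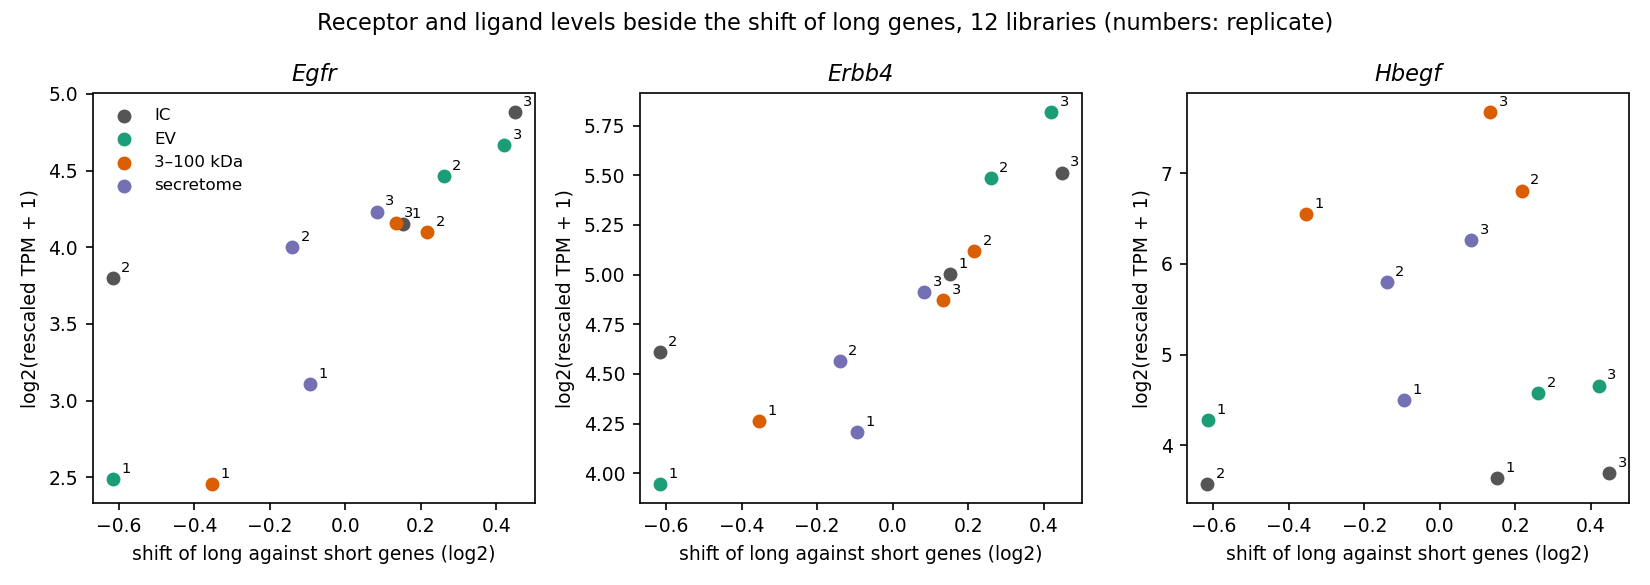
Level of Egfr, Erbb4 and Hbegf (vertical axis, log2 of rescaled TPM + 1) against the shift of long against short genes (horizontal axis, log2) in the 12 libraries, coloured by group and numbered by replicate. Egfr and Erbb4 are low in the first EV library, where the shift is −0.62, and Hbegf is highest in the 3–100 kDa libraries, whose shifts run from −0.35 to 0.22.

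Erbb2, which encodes the partner receptor without a ligand, was at 1.73, 1.72 and 1.62 TPM in IC, and every treated library was above these values. With EV it was at 2.50, 1.91 and 2.76 TPM, with the 3–100 kDa proteins at 2.90, 2.65 and 2.43 TPM and with the total secretome at 2.31, 2.30 and 2.0 TPM. The differences from IC were 0.32, 0.46 and 0.26, and the lowest adjusted p was 0.272, with the 3–100 kDa proteins. Erbb3, a receptor of neuregulins with little kinase activity of its own, was at 1.76, 0.752 and 1.28 TPM in IC. It was at 1.86, 3.07 and 1.88 TPM with the 3–100 kDa proteins (difference 0.55, adjusted p = 0.336) and at 2.49, 1.66 and 3.40 TPM with the total secretome (0.65, adjusted p = 0.330). With EV, Erbb3 differed from IC by −0.01.

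Of the 10 members, 7 were tested in every comparison. In the EV comparison 0 members passed the FDR threshold of 0.05 by limma, against 0.141% of 12754 genes, and 1 had an unadjusted p under 0.05, against 2.82%. A second criterion was a p under 0.05, read here as unadjusted, with a fold over 1.5, after the results of the study. By it, 1 member was higher, against 1.56% of all genes. With the 3–100 kDa proteins 1 member rose at the FDR threshold, against 2.83% of 12792 genes, 3 had an unadjusted p under 0.05, against 17%, and 2 were higher by the second criterion, against 6.64%. With the total secretome 0 passed the FDR threshold, against 1.97% of 12790 genes, 2 had an unadjusted p under 0.05, against 16.2%, and those 2 were higher by the second criterion, against 5.54%. On deposited TPM, 2, 4 and 3 of the tested members lay above IC without overlap, against 3.24%, 10.7% and 11.4% of genes. On rescaled TPM the counts were 2, 4 and 4, against 3.7%, 12.6% and 13%, since Erbb3 with the total secretome no longer overlapped. Median log2 differences of the tested members were 0.12, 0.46 and 0.26, against −0.01, −0.02 and −0.01 over all genes. The 3 comparisons share the IC libraries.

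**Figure D3:**
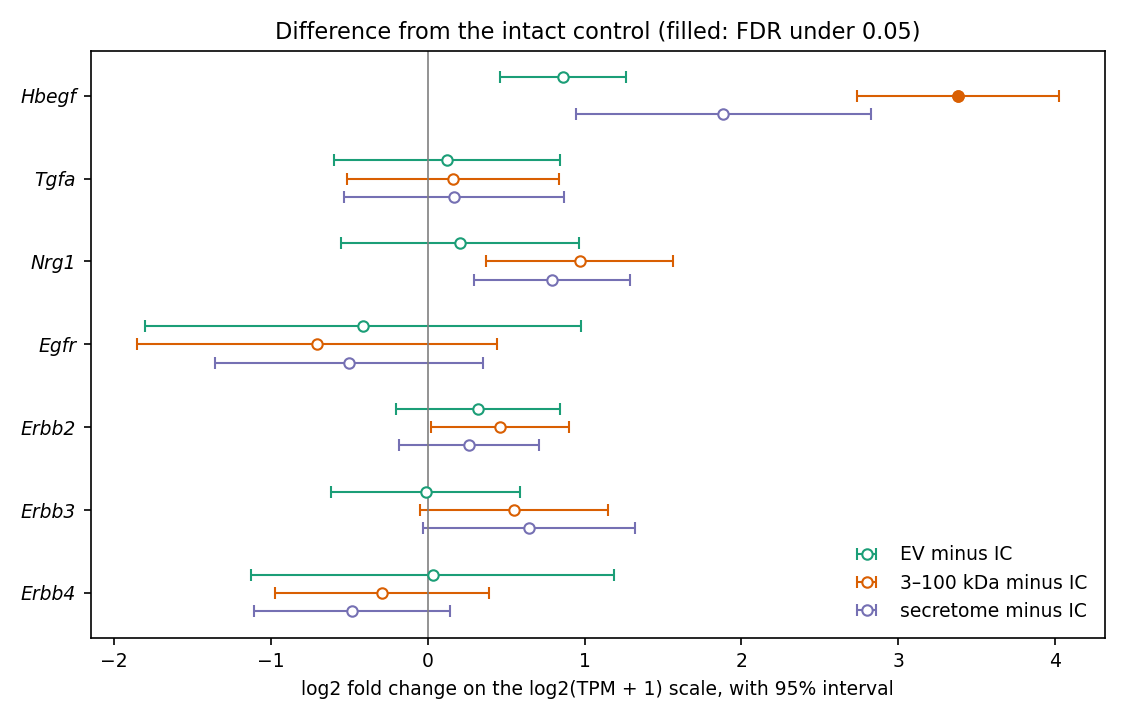
Log2 fold change of the 7 tested members against IC (horizontal axis, log2(TPM + 1) scale) with its 95% interval, for EV, 3–100 kDa proteins and total secretome. The filled point is the 1 member past FDR 0.05, Hbegf with the 3–100 kDa proteins at 3.38.

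Between preparations, Hbegf was lower with EV than with the 3–100 kDa proteins by −2.50 on the log2 scale (SE 0.29, adjusted p = 0.0215). This was the 1 member called of the 7, against 0.494% of 12751 genes lower with EV. The adjusted p was 0.00424 with the replicate block, and 0.111, 0.101 and 0.0890 when the second 3–100 kDa library, the second EV library or the third EV library was left out. By the second criterion Nrg1 was also lower (−0.76, adjusted p = 0.528, and 0.0926 with the block), so that 2 members were lower against 3.56% of genes. An unadjusted p under 0.05 was reached by 3 members, against 9.34% of genes, and the other one was Erbb3 (−0.56, adjusted p = 0.512), whose libraries did not overlap. Between EV and the total secretome, 0 members passed the FDR threshold by limma, against 0.188% of 12754 genes, and 2 had an unadjusted p under 0.05, against 7.7%. These were Hbegf (−1.01, adjusted p = 0.603) and Erbb3 (−0.65, adjusted p = 0.624). Both were lower with EV by the second criterion too, against 2.56% of genes. The Hbegf difference ranged from −1.52 without the first total secretome library to −0.64 without the third. Between the total secretome and the 3–100 kDa proteins, 0 passed, against 0.0157% of 12723 genes. Hbegf was lower with the total secretome by the second criterion, as the 1 member of 7 and against 0.707% of genes (−1.48, adjusted p = 1.0, and 0.173 with the block), and its difference was −0.97 without the first total secretome library.

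Of the other ligands of the family, 2 could be tested. Nrg3, a neuregulin of neurons, averaged 17.6 ± 7.28 TPM in IC and between 15.6 and 20.9 TPM in the treated groups. Nrg2 averaged 2.10 ± 0.766 TPM in IC and between 1.90 and 2.20 TPM in the treated groups, and neither passed a test. Egf, Epgn and Nrg4 were not tested. Egf was at 0.262, 0.469 and 0.235 TPM in IC and lower in each EV library (0.223, 0.203 and 0.0759 TPM), all under 1 TPM. Epgn was above 0 in 1 library of each group, and Nrg4 was listed at 0 in all 12 libraries.

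Genes that process ligands or restrain the receptors were taken from lists chosen with earlier results of these data known. Of 8 tested sheddases and regulators, 0 passed the FDR threshold against IC in any comparison by limma. By the second criterion 0, 3 and 2 were higher with EV, the 3–100 kDa proteins and the total secretome, against 1.56%, 6.64% and 5.54% of all genes. With the 3–100 kDa proteins 1 passed with no trend, without the second IC library or without the first 3–100 kDa library. With the total secretome 1 passed under the replicate block and in the fit of all 12 libraries, and 2 without the second IC library. Rhbdf1, which encodes the inactive rhomboid iRhom1 that handles ADAM17, differed from IC by 0.83 (adjusted p = 0.0631) with the 3–100 kDa proteins and by 0.99 (adjusted p = 0.0596) with the total secretome. Adam12 differed by 1.31 (adjusted p = 0.108) and 0.96 (adjusted p = 0.206). Adam17, which encodes the main sheddase of HB-EGF, TGF-α and amphiregulin, was at 7.18 ± 0.806 TPM in IC and at 11.1 ± 1.04 TPM with the total secretome (0.58, adjusted p = 0.171). Of 10 genes of receptor feedback, Errfi1 alone passed, with the 3–100 kDa proteins, against 2.83% of all genes higher there. Errfi1, which encodes the receptor inhibitor MIG6, held 10.9, 7.41 and 12.5 TPM in IC against 33.1, 42.7 and 60.7 TPM with the 3–100 kDa proteins, a rise of 2.06 (SE 0.30, adjusted p = 0.0147). Without the first IC library, or without the second or the third 3–100 kDa library, 0 of the 10 passed, and in the fit of all 12 libraries 2 did. Lrig1, which encodes another receptor inhibitor, differed by 0.94 (adjusted p = 0.164), and Socs5 by 0.52 (adjusted p = 0.0988).

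All 8 genes of ERK feedback had a positive difference from IC with each protein preparation. With the 3–100 kDa proteins 5 of 8 passed the FDR threshold, against 2.83% of all genes higher. The list median was 1.82, against −0.02 for all genes. With the total secretome 5 of 8 passed, against 1.68% of all genes higher, with a list median of 1.26. Dusp6, which encodes a phosphatase of ERK, was at 8.84, 8.05 and 8.54 TPM in IC, at 39.0, 53.7 and 52.8 TPM with the 3–100 kDa proteins (2.40, adjusted p = 0.00131) and at 29.4, 36 and 34.9 TPM with the total secretome (1.87, adjusted p = 0.00338). With EV it was at 15.6, 20.2 and 20.3 TPM, above IC in every library, but its difference of 1.04 had an adjusted p of 0.136. Spry1, Spred1 and Spred2 did not pass in either, with adjusted p from 0.0941 to 0.302. The others that passed in both were Dusp4, Dusp5, Spry2 and Spry4, whose products are phosphatases and inhibitors of this pathway. Dusp5 was at 0.549 TPM in the second IC library and left the tests when 1 TPM was asked of all 6 libraries, so that 4 passed with each preparation. In the total secretome the count was 3 without the first IC library and 2 without the second or the third total secretome library. With EV 0 of 8 passed (1 in the fit of all 12 libraries), while 3 met the second criterion, against 1.56% of all genes higher.

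The next list holds early response genes that growth factors switch on. The FDR threshold was passed by 2 of 10 with EV, 8 of 11 with the 3–100 kDa proteins and 7 of 11 with the total secretome, all higher than IC. The shares of all genes higher at this threshold were 0.102%, 2.83% and 1.68%. List medians were 1.26, 2.40 and 2.10. Fosl1, which encodes the AP-1 subunit FRA-1, had 0, 0.138 and 0 TPM in the IC libraries. It was at 4.36, 5.42 and 5.55 TPM with EV, at 22.1, 29.8 and 35.5 TPM with the 3–100 kDa proteins and at 5.59, 13.7 and 16.2 TPM with the total secretome. The calls in EV were Fosl1 (adjusted p = 0.0154) and Fos (2.13, adjusted p = 0.0398). The EV count was 0 without the first or the third IC library or any EV library and when at least 1 TPM was asked of all 6 libraries, 1 with a pseudocount of 0.1 or no filter, and 5 in the fit of all 12 libraries. Egr3 differed by 0.17 with EV (adjusted p = 1.0). The 3–100 kDa count was 3 without the second or the third 3–100 kDa library and 4 with that filter. The total secretome count was 0 without the second or the third of its libraries, 4 without the first of them, 3 without the first IC library and 3 with that filter. Phlda1, Egr1, Egr2, Ier3 and Maff passed with both protein preparations, with differences of 3.08, 2.91, 4.14, 3.39 and 2.40 for the 3–100 kDa proteins. Fosl1, Egr2, Ier3, Maff and Atf3 reached 1 TPM in at most 1 IC library, so they entered the tests through the treated libraries and left them under the stricter filter. Phlda1 and Egr1 kept their calls there with both protein preparations.

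Surface partners of the ligands and receptors included Cd44, a hyaluronan receptor that can carry HB-EGF. It was at 4.87, 1.08 and 2.08 TPM in IC, at 22.3, 49.98 and 39.0 TPM with EV, at 63.5, 98.7 and 104 TPM with the 3–100 kDa proteins and at 51.8, 60.8 and 61.2 TPM with the total secretome. Cd44 rose by 3.43, 4.74 and 4.15 (adjusted p = 0.0466, 0.00143 and 0.00312). The EV call was lost with any 1 library left out, with a pseudocount of 0.1, with no filter, with the stricter filter and with no trend. Sdc4, which encodes a heparan sulphate carrier, rose with the 3–100 kDa proteins (1.70, adjusted p = 0.00532) and the total secretome (1.30, adjusted p = 0.0212), and Cd9, whose product binds the HB-EGF precursor, rose with the 3–100 kDa proteins (1.18, adjusted p = 0.0245), as did Itgb1 (adjusted p = 0.0467). Of 11 partners, 1, 4 and 2 passed with EV, the 3–100 kDa proteins and the total secretome, against 0.102%, 2.83% and 1.68% of all genes higher. The 3–100 kDa count was 2 without the first or the third IC library or the second or the third 3–100 kDa library, and the total secretome count was 4 without the second IC library and 1 without the first IC library or any total secretome library.

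Kinases and adaptors carry the signal inward. Of 16 genes of the Ras and ERK arm and 10 of the PI3K-Akt and PLC arm, 0 passed the FDR threshold against IC in any of the 3 comparisons by limma, and list medians lay between 0.02 and 0.14. In the fit of all 12 libraries 1 gene of each arm passed with the 3–100 kDa proteins, and without the second IC library 1 gene of the PI3K-Akt and PLC arm passed with the total secretome. Gab1, which encodes a docking protein, differed by 0.63 with the total secretome (adjusted p = 0.0886). Pik3cb differed by 0.72 (adjusted p = 0.0800) and 0.59 (adjusted p = 0.162).

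**Figure D4:**
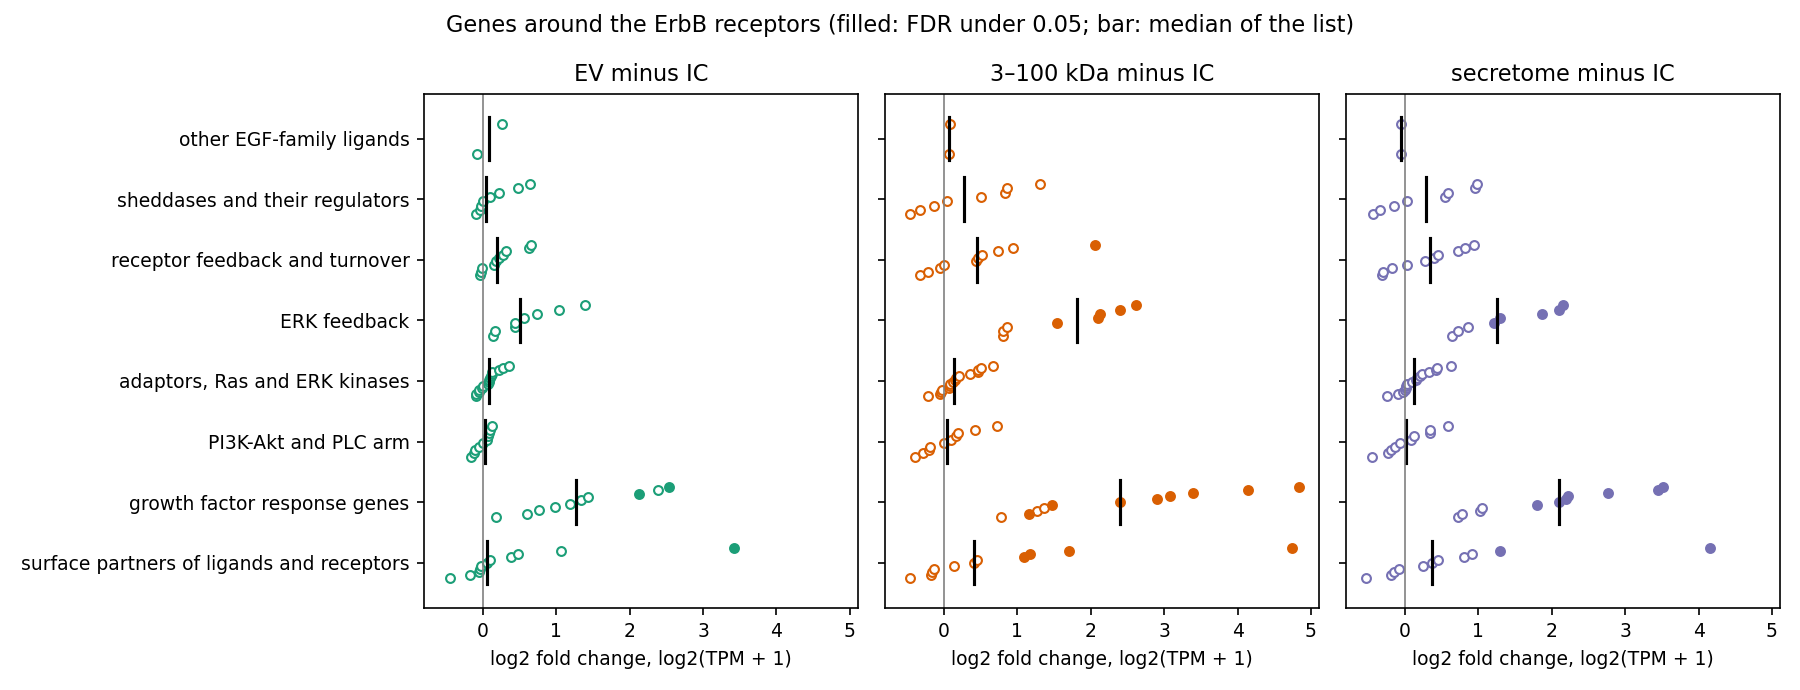
Log2 fold change against IC (horizontal axis, log2(TPM + 1) scale) of the tested genes of 8 lists around the receptors, for EV, 3–100 kDa proteins and total secretome. Filled points passed FDR 0.05 and the bar is the list median, which reaches 1.82 for ERK feedback and 2.40 for response genes with the 3–100 kDa proteins.

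The labelled tissue was checked against cell type markers. Summed neuronal markers were 2182 to 2299 TPM in IC, 2060 to 2307 TPM with EV, 1753 to 2088 TPM with the 3–100 kDa proteins and 1713 to 2178 TPM with the total secretome. Every library of both protein preparations was thus below every IC library in this sum, in the groups where Hbegf was highest. Tubb3 carried most of this difference, with means of 1417 TPM in IC and 1159 and 1151 TPM with these preparations, and its libraries overlapped IC. Means of Map2, Rbfox3 and Syt1 were also lower than in IC with both, again with overlap. Mean Snap25 was higher (182 and 178 against 168 TPM), and mean Slc17a7 was 72.9 and 63.5 against 72.9 TPM. Summed interneuron markers lay between 589.5 and 712 TPM over the 12 libraries. Summed astrocyte markers were 644 to 730 TPM in IC and 849 to 1244, 682 to 1144 and 870 to 1254 TPM in the EV, 3–100 kDa and total secretome libraries. Gfap carried most of this difference, with means of 191 TPM in IC and 490.2, 333 and 438 TPM in the treated groups, while Aldh1l1 averaged 12.9 TPM in IC and 12.9, 11.6 and 13.5 TPM. Without Gfap the sums were 369 to 594 TPM in IC and 358 to 627, 440.5 to 698 and 599 to 619 TPM in these groups, overlapping IC for EV and the 3–100 kDa proteins. Oligodendrocyte precursor markers were 165 to 204 TPM in IC and 175 to 209 TPM with EV. They were lower than in every IC library with the 3–100 kDa proteins (106 to 163.5 TPM, against 164.7 TPM in the lowest IC library). With the total secretome they were higher than in every IC library (212 to 234 TPM). The single markers did not all move alike. With the 3–100 kDa proteins mean Olig1 (56.0 against 87.1 TPM in IC), Pdgfra and Sox10 were lower, and mean Olig2 and Cspg4 higher. With the total secretome mean Sox10 was lower than in IC and the other means were higher. Microglial, endothelial and fibroblast or mural markers summed to at most 2.20, 0.595 and 4.28 TPM. The part of cell composition in the levels of the members was not tested, and in these mixed cultures fewer cells of a type and less RNA per cell cannot be told apart.

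Genes with a pattern most like that of each member were ranked by Pearson r over the 12 libraries, as a description of libraries that share their groups. For Hbegf these were Phlda1 (r = 0.989), Plau, which encodes urokinase (0.986), and Rab20 (0.983). For Nrg1 they were Man2a1 (0.977), Ddhd1 (0.974) and Smurf1 (0.972), for Egfr Dennd5a (0.965), Hcfc1 (0.960) and Polr2a (0.956), and for Erbb4 Nrxn3 (0.977), Cpne4 (0.974) and Zfp704 (0.972). Likeness was lower for Erbb2 (Pwp2, 0.902), Erbb3 (Epdr1, 0.907) and Tgfa (Npas2, 0.867).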

How the data were processed

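RNA-seq was measured in 12 libraries of rat neuroglial cultures. According to the methods of the study, the authors removed adapters (Trimmomatic, Cutadapt), ran Salmon on rn6 transcripts (Rnor 6.0 in the submitters' processing notes) with a genome decoy, and made gene tables with tximport. No source names the unit. The deposited values were read as TPM because each library sums to 1000000, and depth is unknown. The labels name a strand-specific mRNA library on a DNBSEQ instrument and the study poly(A) selection and a NextSeq.

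Rows of a name were summed and TPM was rescaled by median of ratios within each pair of groups. Names were kept that reached 1 TPM in 3 or more libraries of the pair, and log2(TPM + 1) was fitted with limma 3.58.1 (eBayes with trend, Benjamini-Hochberg over all genes tested, two-sided) in R 4.3.3. The script was tested on simulated data. A count-based test, as in the study, could not be used on TPM. Calls were made at FDR 0.05 and, as a second criterion, at a p under 0.05, read as unadjusted, with a fold over 1.5. Whether libraries overlap was counted on deposited TPM and also on rescaled TPM, and that choice was made after both had been seen.

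The members, the lists of genes and the motifs were chosen with earlier results of these data known. The genes named were all members, all other ligands, and from each list the 3 genes with the smallest p against IC and any past FDR 0.05, given in part. Egr3 with EV, and Spry1, Spred1 and Spred2, were named beyond this rule. Of the lists, Ier2 and the endothelial marker Pecam1 had no matching name and were not used here, and Erbin was matched as Erbb2ip. RefSeq promoters were matched for 7 of 10 members. To see whether replicate numbers pair libraries, departures from the group mean were correlated between libraries of one number. All 3 correlations were over 0.1 for the total secretome and IC (0.245, 0.161 and 0.158) and for the 3 pairs of treated groups, and not for EV and IC or the 3–100 kDa proteins and IC. This pairing is inferred, and libraries of unlike number were not compared in this way. A supplement of the study mentions a day effect removed from a plot of IC and EV, but no label gives the days, so day is in no fit and its part was not tested. Alternatives were 9 settings and the 6 libraries left out in turn for each comparison.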

Additional observations from a re-analysis of the deposited data

How the results depend on the processing

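Hbegf with the 3–100 kDa proteins kept its call under all 9 other settings and all 6 libraries left out. Over the other settings, 369 single-member values kept direction and side of the threshold, 3 gained a call and 1 changed direction. The total secretome minus IC count of members at FDR 0.05 went from 0 to 1 with no rescaling, with a fit of all 12 libraries and with the replicate block, and was 0 to 1 with 1 library left out. The count for EV minus 3–100 kDa proteins was 0 to 1 with 1 library left out. By p and fold, this comparison went from 2 members to 1 with a pseudocount of 0.1 and with no rescaling (1 to 3 with 1 library left out), and EV minus total secretome from 2 to 1 with a pseudocount of 0.1, with at least 1 TPM in all 6 libraries and with no trend (0 to 2 with 1 left out). The replicate block changed no other FDR call of a member. In EV minus IC, the correlations by replicate number were mixed (−0.0814, −0.181 and 0.541). There the block took the counts of response genes and surface partners at FDR 0.05 from 2 and 1 to 0.

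Erbb3 in EV minus IC went from −0.01 to 0.0020 with a pseudocount of 0.1. With 1 library left out, values that changed sign ranged as follows. In EV minus IC, Tgfa was −0.18 to 0.33, Nrg1 −0.043 to 0.49, Egfr −0.81 to 0.28, Erbb3 −0.19 to 0.12 and Erbb4 −0.34 to 0.60. Tgfa was −0.13 to 0.37 in 3–100 kDa proteins minus IC and −0.13 to 0.37 in total secretome minus IC. In EV minus 3–100 kDa proteins, Tgfa was −0.15 to 0.13, Egfr −0.25 to 0.999 and Erbb4 −0.033 to 0.91. In EV minus total secretome, Tgfa was −0.20 to 0.13, Egfr −0.29 to 0.80 and Erbb2 −0.020 to 0.20. In total secretome minus 3–100 kDa proteins, Tgfa was −0.15 to 0.17, Egfr −0.34 to 0.55 and Erbb3 −0.12 to 0.29. The cause of these changes was not tested. TPM keeps no depth, so how far depth limits the low ligands is unknown.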
